A study of Drosophila melanogaster with 6 samples.

Results

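The genes described here are 38 Drosophila melanogaster genes of the Polycomb group (PcG), the trithorax group (trxG) and the Enhancers of trithorax and Polycomb (ETP), among 13986 annotated protein-coding genes. They were chosen by name, as the genes that encode these chromatin regulators. No measured value served as a filter, but earlier results of these data were known when the list was made. All 38 were found in the annotation, calypso as caly and lid as Kdm5. They comprise 21 PcG genes, 14 trxG genes and 3 ETP genes. The assay was ChIP-seq of Cyclin G, a cyclin that binds chromatin and whose protein partners include the ETPs Asx and Corto. The question asked of each gene was whether the chromatin of its own promoter or body carried Cyclin G, read through a Myc-tagged form of it.

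Chromatin came from wing imaginal discs of female larvae of the third instar, raised at 25 °C, with 600 discs per immunoprecipitation. In 2 ChIP replicates the discs carried UAS-Myc-CycGΔP under da-Gal4/+, so that a Myc-tagged Cyclin G without its PEST domain was made under a ubiquitous driver in addition to the endogenous protein. Each of these had its own input, and the mock was 1 anti-Myc ChIP with 1 input from da-Gal4/+ discs, which carry the driver and no tagged protein. The antibody was anti-Myc throughout, so the peaks report the tagged protein and not the endogenous one. The paper could not exclude that the binding of the 2 forms differs, and assumed the same pattern. The Myc-CycGΔP libraries were made from 38 ng of DNA with reads of 75 bp and the mock libraries from 5 ng with reads of 50 bp, so genotype and library preparation cannot be told apart in that comparison. The deposited measurement is 1 list of 3363 peaks that were reproducible between the 2 ChIP replicates. It has a position for each peak and no height, score or value per sample, so each gene has 1 outcome, the replicates have no spread to report, and no level of expression or cell type marker can be checked. The list does not give the depth behind a peak.

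Polycomb proteins keep genes repressed, most famously the Hox genes, and work in complexes. PRC2 methylates lysine 27 of histone H3, PRC1 binds that mark and ubiquitinates histone H2A, PhoRC binds DNA at Polycomb response elements, and PR-DUB removes ubiquitin from H2A. Trithorax proteins maintain active states, among them the Brahma complex, which remodels nucleosomes, and the COMPASS complexes, which methylate lysine 4 of histone H3. ETPs such as Asx and Corto were defined by mutations that enhance phenotypes of both groups.

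A gene was scored as bound at a start when at least 1 of its annotated transcript starts lay inside a peak. It was scored as bound in the body only when a peak overlapped the gene by at least 1 bp but no start, and otherwise as neither. In counts by complex, the PRC1, PRC2 and PhoRC groups also hold associated or accessory genes, and each gene was counted in 1 group. Of the 38 genes, 5 had a start inside a peak: Pc (Polycomb), Asx, mor (moira), osa and trx (trithorax). That was 13.2% of the list (95% Wilson interval 5.75 to 27.3%), beside 795 of all 13986 protein-coding genes, or 5.68%. One gene, jing, had a peak in the body only (2.63%, interval 0.466 to 13.5%), where the share of all protein-coding genes was 1.89%. The other 32 genes had neither (84.2%, interval 69.6 to 92.6%, against 92.4% of protein-coding genes). The intervals cover counting error over genes alone, and the lower end for bound starts lay next to the background share. That share is not matched for length, and the listed genes are longer (median 7772 bp against 2162 bp). It was 4.61% for protein-coding genes under 5 kb, 8.78% from 5 to 20 kb and 9.21% over 20 kb.

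**Figure D1:**
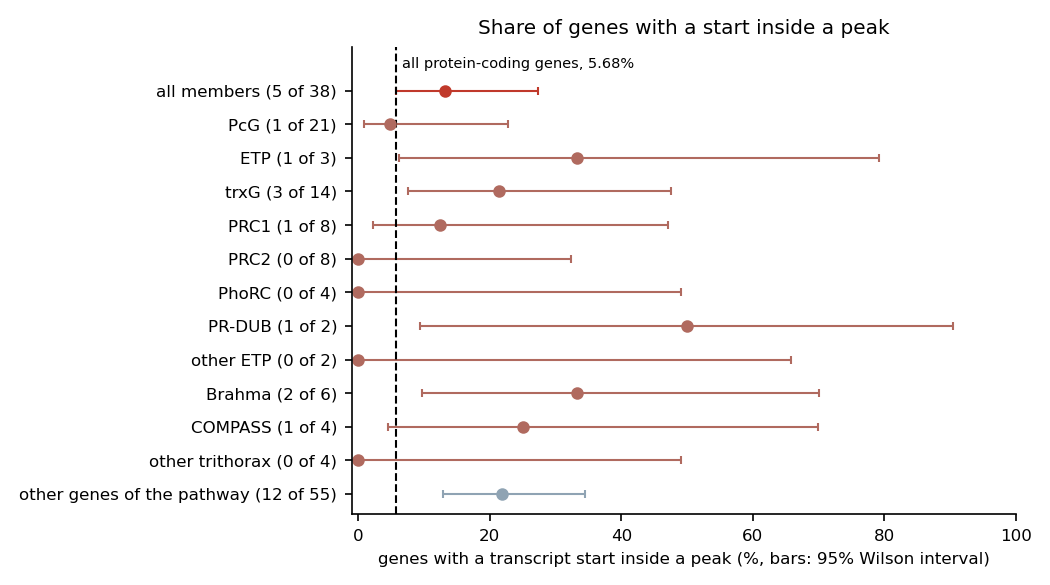
Share of genes with a transcript start inside a peak (x axis, percent) for the whole list, its 3 classes, its complexes and the other genes of the pathway (y axis, with counts). Points are shares, bars are 95% Wilson intervals and the dashed line is the share of all protein-coding genes, 5.68%, not matched for length. The whole list lies at 13.2% with a lower bound of 5.75%, and the intervals of the single complexes are wide, as few genes stand behind each.

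Promoter sequences are shown for 4 of the 5 bound genes, osa, mor, trx and Pc, in order of peak width, because the peaks lie on this DNA. That of Asx is not printed here. That of corto is added because its protein binds Cyclin G while no peak was listed at its own promoter. Each runs 5′ to 3′ on the gene's strand from 250 bases before the start to 30 bases from the start on, 280 bases in dm6. Capitals mark matches to 5 short motifs: the DRE (TATCGATA), the GAGA element (GAGAG) and the core of the Pho site (GCCAT) on both strands, and on the gene's strand an initiator (TCAGT) within 10 bases of the start and a TATA box (TATAAA) 40 to 20 bases before it. Matches of GAGAG may overlap each other.
osa: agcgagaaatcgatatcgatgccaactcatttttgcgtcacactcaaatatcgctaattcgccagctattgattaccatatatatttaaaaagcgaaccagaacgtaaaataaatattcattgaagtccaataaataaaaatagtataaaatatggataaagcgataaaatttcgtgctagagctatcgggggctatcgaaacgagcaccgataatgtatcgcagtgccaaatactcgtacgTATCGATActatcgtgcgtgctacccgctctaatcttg
mor: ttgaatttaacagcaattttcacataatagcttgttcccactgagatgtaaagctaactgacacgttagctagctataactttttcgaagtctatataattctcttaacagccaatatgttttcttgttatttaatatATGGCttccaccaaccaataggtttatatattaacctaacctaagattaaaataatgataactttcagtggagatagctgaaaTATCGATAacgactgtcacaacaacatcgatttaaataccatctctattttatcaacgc
trx: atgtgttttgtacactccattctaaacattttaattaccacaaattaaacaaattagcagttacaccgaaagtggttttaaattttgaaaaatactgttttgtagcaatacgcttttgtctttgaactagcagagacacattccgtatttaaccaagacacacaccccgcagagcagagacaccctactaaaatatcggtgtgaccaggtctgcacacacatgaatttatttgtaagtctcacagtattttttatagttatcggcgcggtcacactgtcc
Pc: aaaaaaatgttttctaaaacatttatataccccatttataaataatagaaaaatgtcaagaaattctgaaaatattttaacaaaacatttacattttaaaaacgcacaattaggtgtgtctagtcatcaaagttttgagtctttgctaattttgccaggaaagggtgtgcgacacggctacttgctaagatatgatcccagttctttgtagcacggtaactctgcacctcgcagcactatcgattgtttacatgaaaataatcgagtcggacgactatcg
corto: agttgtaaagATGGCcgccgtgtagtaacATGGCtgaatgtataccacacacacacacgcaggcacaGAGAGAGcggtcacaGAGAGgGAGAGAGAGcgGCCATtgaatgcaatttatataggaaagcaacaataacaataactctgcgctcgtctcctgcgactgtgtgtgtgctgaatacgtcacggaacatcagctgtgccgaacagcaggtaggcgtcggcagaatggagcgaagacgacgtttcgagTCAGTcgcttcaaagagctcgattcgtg
The osa window is chr3R:17718321-17718600, that of mor chr3R:15972884-15973163, that of trx chr3R:14286874-14287153, that of Pc chr3L:21317991-21318270 and that of corto chr3R:5087043-5087322, all on the minus strand. Osa and mor each had a single DRE, whose first base lay 8 and 29 bases before the start, and mor also had a Pho core match 112 bases before it. The windows of trx and Pc held none of the 5 motifs. The corto window held 6 overlapping or neighbouring GAGA matches, 3 Pho core matches and an initiator match.

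Within PRC1 the bound gene was Pc, which encodes the chromodomain protein that binds methylated lysine 27. Pc (FBgn0003042, chr3L:21306138-21318020, minus strand) has 1 annotated start, and the peak chr3L:21317948-21318205 covered it. This peak was 258 bp wide and reached from 185 bp upstream of the start to 72 bp into the first exon of 224 bp, before the start codon at 110 bp. Its centre lay 56.5 bp upstream of the start. Most of the Pc gene body is a single roo retrotransposon of 9101 bp in the reference genome, and no peak overlapped that insertion. Just 24.7% of the 75 bp words that start in the gene occur once in the genome, whereas all words that start in the peak do.

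The other 7 PRC1 genes had no peak at a start or in the body. The nearest peak to a start of ph-d and of ph-p, tandem genes that encode the SAM-domain subunit Polyhomeotic, was the same peak at the start of csw, 27.4 and 42.3 kb away. Psc and Su(z)2, neighbouring genes for RING-finger proteins, also shared their nearest peak, at 62.2 and 46.1 kb. Scm, an MBT- and SAM-domain protein linked to PRC1, lay 40.2 kb from a peak. Sce, the ubiquitin ligase of PRC1, and Kdm2, its partner in the dRAF complex, lay 110.1 and 107.3 kb away. After Pc itself, the PRC1 gene nearest to a peak was therefore ph-d.

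Within PR-DUB the bound gene was Asx (FBgn0261823, chr2R:14503958-14512493, plus strand), whose protein is the partner of the deubiquitinase Calypso and of Cyclin G. The peak chr2R:14503730-14504100, 371 bp wide, covered the 5′-most of its 3 starts. It extended 228 bp upstream and 142 bp downstream, inside a first exon of 613 bp, and its centre was 43.0 bp upstream of the start. The gene of the deubiquitinase itself, calypso, had neither, with its nearest peak 71.3 kb away at spin.

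The second ETP partner of Cyclin G, corto (FBgn0010313, chr3R:5077779-5087072, minus strand), had no peak at either of its 2 starts or in its body. Its nearest peak was 33.8 kb from a start, 1061 bp wide, on an HMS-Beagle element. Only 7.82% of the words of 75 bp in that peak occur once in the genome, so reads from other copies could be placed there. The DNA around both corto starts was unique, as it was around every start of the 38 genes (every word that starts within 250 bp on either side). E(Pc), the ETP that belongs to the Tip60 acetyltransferase complex, was among the genes farthest from any peak, at 399.7 kb. Of the genes for the 2 ETP partners, then, Asx had a listed peak at its start and corto had none.

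Among the Brahma genes 2 of 6 were bound. Mor (FBgn0002783, chr3R:15968134-15972913), which encodes the SWIRM- and SANT-domain scaffold of the complex, had a peak of 370 bp at chr3R:15972886-15973255. It began 342 bp upstream of the only start and ended 27 bp downstream, with the centre 157.5 bp upstream. Osa (FBgn0261885, chr3R:17687818-17718350), the ARID-domain subunit that defines the BAP form of the complex, had the widest of the 5 peaks, 472 bp at chr3R:17718262-17718733. That peak reached from 383 bp upstream to 88 bp downstream of the start shared by all 6 osa transcripts, and its centre was 147.5 bp upstream. Both genes lie on the minus strand of 3R. The ATPase gene brm was 50.0 kb from a peak, the core subunit gene Bap60 52.1 kb, Bap111, which encodes an HMG-domain subunit, 59.7 kb and Snr1, the SNF5 homolog, 99.1 kb.

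Of 4 COMPASS genes, trx was bound. Trx (FBgn0003862, chr3R:14263358-14286903, minus strand) encodes an H3K4 methyltransferase, and its 5 transcripts share 1 start. The peak chr3R:14286830-14287097, 268 bp wide, extended from 194 bp upstream to 73 bp downstream, within a first exon of 695 bp, and its centre lay 60.5 bp upstream. The gene of the related methyltransferase trr had its nearest peak 66.2 kb away. Ash2, a subunit that COMPASS complexes share, lay 24.3 kb from a peak and Utx, the H3K27 demethylase of the Trr complex, 35.5 kb.

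**Figure D2:**
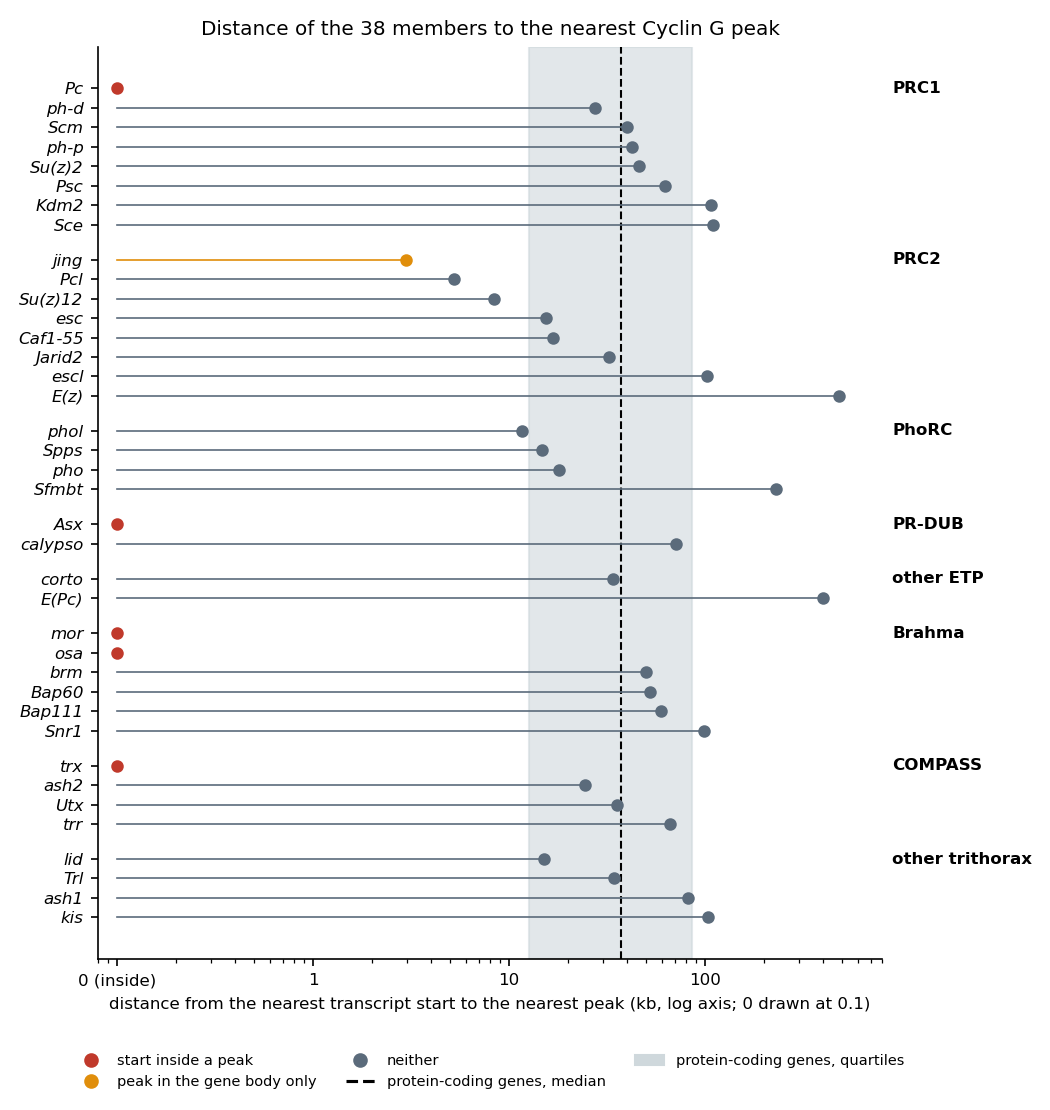
Distance from the nearest transcript start of each of the 38 genes (y axis, grouped by complex) to the nearest peak (x axis, kb on a log scale, with 0 drawn at 0.1). Red points are genes with a start inside a peak, the orange point is jing and grey points are genes with neither; the dashed line and the band are the median, 37.4 kb, and the quartiles, 12.6 and 85.5 kb, of all protein-coding genes. No gene lies between 0 and 3.0 kb, the distance of jing.

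No PRC2 gene had a start inside a peak (0 of 8, upper Wilson limit 32.4%). Jing, which encodes a zinc-finger accessory subunit homologous to AEBP2, is a gene of 119787 bp on 2R, and 1 peak lay in its body. That peak, chr2R:6582034-6583309, was 1276 bp wide and lay wholly within a flea retrotransposon of 5029 bp annotated in an intron, with its centre 27815.5 bp from the nearest start. None of the words of 75 bp that start in it occurs once in the genome, so the list does not tell this copy of flea from the others. A further peak 3.0 kb upstream of the first jing start lay on an F element and also held no unique word. Without peaks on annotated mobile elements, a setting chosen after the data were seen, no member had a body peak.

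The PRC2 core genes stood at varied distances. E(z), the H3K27 methyltransferase, was the farthest of all 38 genes from a peak, at 485.0 kb. Esc and its homolog escl, which encode WD40 subunits, lay 15.4 and 102.7 kb away. Su(z)12, a zinc-finger subunit, lay 8.3 kb from the peak at Rpn1, and Caf1-55, a WD40 histone-binding subunit of several complexes, 16.8 kb from the peak at Hsc70-4. Of the accessory subunits, Pcl was the nearest unbound gene apart from jing, 5.2 kb from the peak at the start of pAbp, and this peak began 669 bp past the far end of Pcl. Jarid2 lay 32.4 kb from a peak on an S element, which was also the nearest peak to phol.

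None of the 4 genes in the group of PhoRC and DNA binding at Polycomb response elements had a peak. Pho and phol encode the homologous DNA-binding proteins related to YY1, and their starts were 18.0 and 11.6 kb from a peak. Spps, a DNA-binding protein of the Sp1 family, lay 14.8 kb from a peak on a flea element, and Sfmbt, the MBT-domain subunit, 229.2 kb from one. Among the remaining trxG genes, lid (an H3K4 demethylase) lay 14984 bp from the peak at eIF4A, Trl (the GAGA factor) 34.5 kb, ash1 (an H3K36 methyltransferase) 81.9 kb and kis (a chromodomain helicase) 103.2 kb.

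By class, 1 of 21 PcG genes (4.76%, interval 0.846 to 22.7%), 3 of 14 trxG genes (21.4%, 7.57 to 47.6%) and 1 of 3 ETP genes (33.3%, 6.15 to 79.2%) had a start inside a peak. These intervals overlap, and the difference between classes was not tested. Over all protein-coding genes the share was 5.68%. The bound trxG genes osa and trx exceed 20 kb, where that share was 9.21%. The bound genes were spread over 4 of these groups, and in each most or an equal number of the listed genes were unbound. Bound were 1 of 8 in PRC1 with its associated genes, 1 of 2 in PR-DUB, 2 of 6 in Brahma and 1 of 4 in COMPASS. On arm 3R 3 of 11 members were bound, against 4.44% of its protein-coding genes, on 3L 1 of 8 against 3.87% and on 2R 1 of 7 against 4.52%. None of the 6 members on 2L, the 5 on X and the 1 on chromosome 4 was bound, where the shares were 7.45%, 7.88% and 24 of 80 genes.

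The 5 peaks are grouped because each covers a start, which limits where their centres and edges can lie. In each the centre lay upstream of the start, by 43.0 to 157.5 bp, and the downstream edge ended inside the first exon, 27 to 142 bp from the start. Asx alone has more than 1 annotated start, and its peak covered the 5′-most of the 3. No other gene had a start inside any of the 5 peaks, and all words of 75 bp in these peaks occur once in the genome. Unique sequence was usual, as 673 of the 795 bound protein-coding genes stayed bound with unique peaks alone. No background share is given for the single start, the single gene in each peak or the edge inside the first exon. None of these was shown to be particular to the members. Over the other protein-coding genes with a start inside a peak of at least 90% unique words, 669 pairs of gene and peak, the centre had a median offset of -74.0 bp (quartiles -104.0 and -47.5), the upstream edge -224.0 bp and the downstream edge 80.0 bp. Pc and trx fell within the quartiles of the centre offset, Asx lay closer to the start, and mor and osa lay farther upstream than the lower quartile. The peaks of Pc and trx were narrow (258 and 268 bp) and those of Asx, mor and osa wide (371, 370 and 472 bp), where the median over all 640 peaks that cover a start was 315.0 bp.

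**Figure D3:**
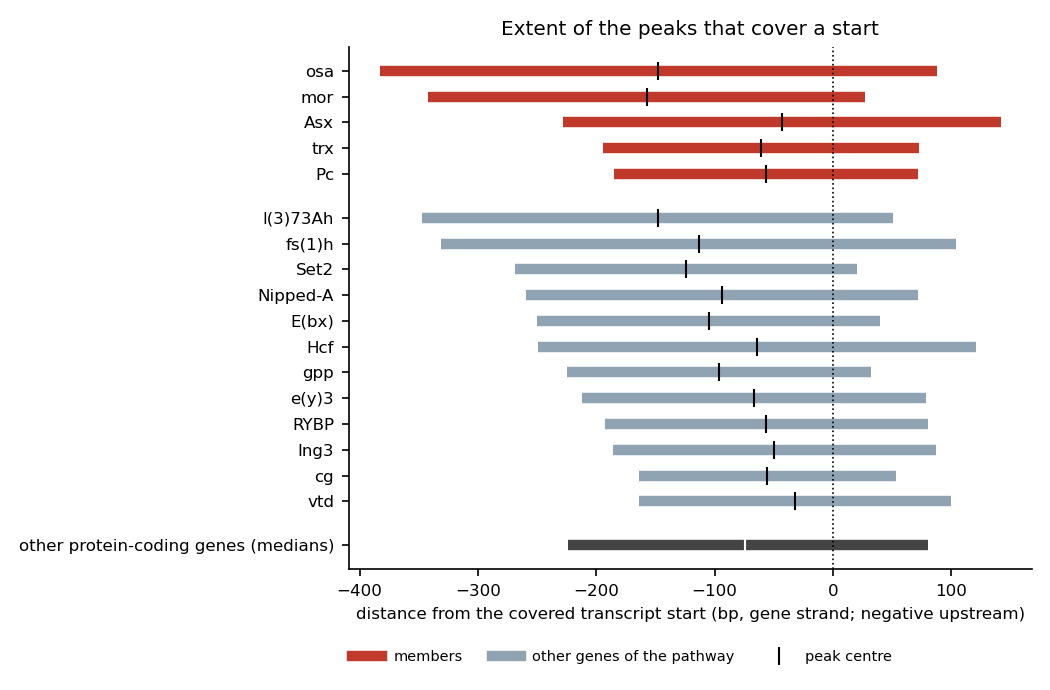
Extent of each peak that covers a start (bars) and its centre (ticks), in bp from the covered start on the gene's strand (x axis), for the 5 bound members (red), the 12 other bound genes of the pathway (grey) and the median edges and centre over 669 gene and peak pairs of other protein-coding genes (dark bar). All centres lie upstream of the start, at most 157.5 bp from it, at mor.

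Each of the bound genes has as its nearest upstream protein-coding neighbour a gene on the opposite strand, as have 24 of the 33 other members (72.7%) and 7690 of all 13986 protein-coding genes. Among protein-coding genes bound at a start it was 529 of 795, or 66.5%. The edge of the mor peak stopped 43 bp short of the start of Hel89B and that of the Asx peak 242 bp short of Cpsf160. The gaps were 569 bp to Rab26 for Pc, 721 bp to Pxt for osa and 1974 bp to red for trx, and noncoding RNA genes start between in the cases of Pc (445 bp from the peak edge) and trx (1132 bp). Such divergent neighbours within 1 kb upstream were found for 21 of the 38 genes, and 3 of these were bound, where the share over all protein-coding genes of this kind was 8.73%. Of the 17 without one, 2 were bound, against 4.19%. At E(z) the start of Cnep1r2 is 16 bp away, at phol that of CG3552 37 bp and at calypso that of CG44242 51 bp, and no peak lay at any of these pairs.

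The listed genes are long, with a median of 7772 bp against 2162 bp for all protein-coding genes, and the background rose with length. Under 5 kb, 1 of 15 members (mor) was bound at a start, against 4.61% of protein-coding genes of that length. From 5 to 20 kb, 2 of 19 (Pc and Asx) were bound, against 8.78%, and over 20 kb 2 of 4 (osa and trx), against 9.21%. For peaks in the body only, the background was 0.496% under 5 kb, where no member was called, 2.06% from 5 to 20 kb, again with none, and 15.9% over 20 kb, where jing was 1 of 4. Of the 265 protein-coding genes with a body peak alone, 155 (58.5%) had all their peaks on annotated mobile elements, as jing did.

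Distances to peaks were otherwise close to those of all genes. The median distance from the nearest start to the nearest peak was 35.0 kb over the 38 genes (quartiles 14.8 and 70.1) and 37.4 kb over protein-coding genes (12.6 and 85.5). Within 10 kb of a peak were 8 genes, or 21.1%, against 21.5%. Without the genes bound at a start the medians were 42.3 and 41.3 kb, and 3 of 33 members (jing, Pcl and Su(z)12) lay within 10 kb, 9.09% against 16.8%. Nearest to being called after jing at 3.0 kb was Pcl at 5.2 kb, and of the bound genes the start nearest to a peak edge was that of mor, 27 bp inside its peak. Of the 33 members not bound at a start, which had 30 distinct nearest peaks, 18 had as their nearest a peak that covered the start of another gene (54.5%, against 62.2% of such protein-coding genes). For 11 it lay on a mobile element (33.3 against 27.2%) and for 4 on neither (12.1 against 10.7%), shares close to those of all genes. The nearest peak was unique for 21 of the 33, against 9349 of 13189 such protein-coding genes. At the remaining ones reads from other copies could be placed there, as at corto. Of all 3363 peaks 739 had at least 90% unique words, and with these alone the median distance of the 38 members was 44.2 kb.

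**Figure D4:**
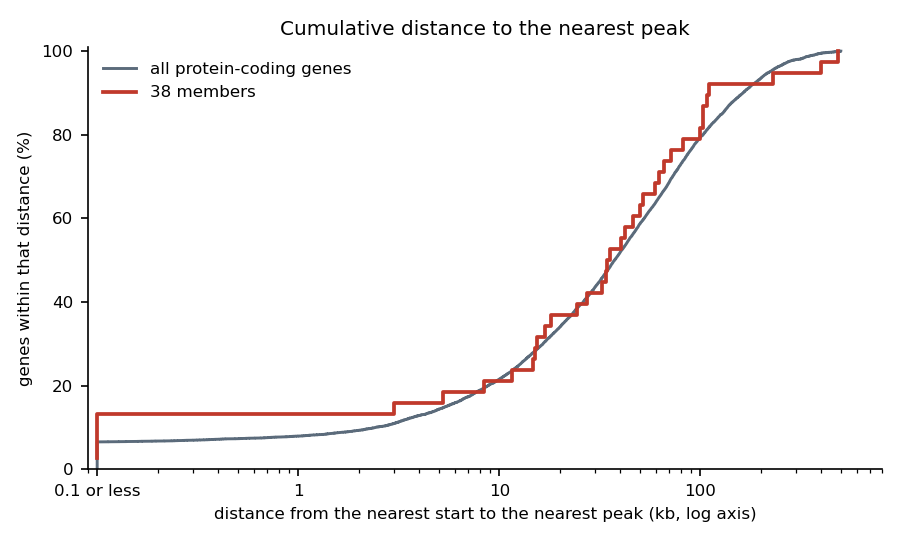
Cumulative share of genes (y axis, percent) within a given distance of a peak (x axis, kb, log scale) for the 38 members (red) and all protein-coding genes (grey). The red line starts at 13.2% and stays level up to 3.0 kb, and the lines meet near 10 kb, at 21.1 and 21.5%.

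The motif search covered the window from 250 bases before to 50 from the start of 13977 protein-coding genes, at the covered start of bound genes and the 5′-most start of the others. A DRE was present in 2 of the 5 bound members (osa and mor) and in 2 of the 33 others (Scm and Sfmbt), and in 9.37% of all promoters and 18.6% of those bound at a start. None of the bound members had a GAGA element, which 11 of the 33 others (33.3%), 29.7% of all promoters and 23.4% of the bound promoters held. A Pho core was found in 1 bound member (mor) and in 23 of the 33 others (69.7%), beside 41.1% of all promoters and 43.5% of bound ones. An initiator match occurred in 3 unbound members (Su(z)2, jing and corto) and in no bound one, with 13.1% of all promoters and 3.27% of bound promoters holding it. The TATA box was in none of the 38 windows, against 7.76% of all promoters and 8.82% of bound ones. Median GC content was 37.3% in the bound members, 39.3% in the others and 38.0% over all promoters. These are matches of letters, not measured sites.

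**Figure D5:**
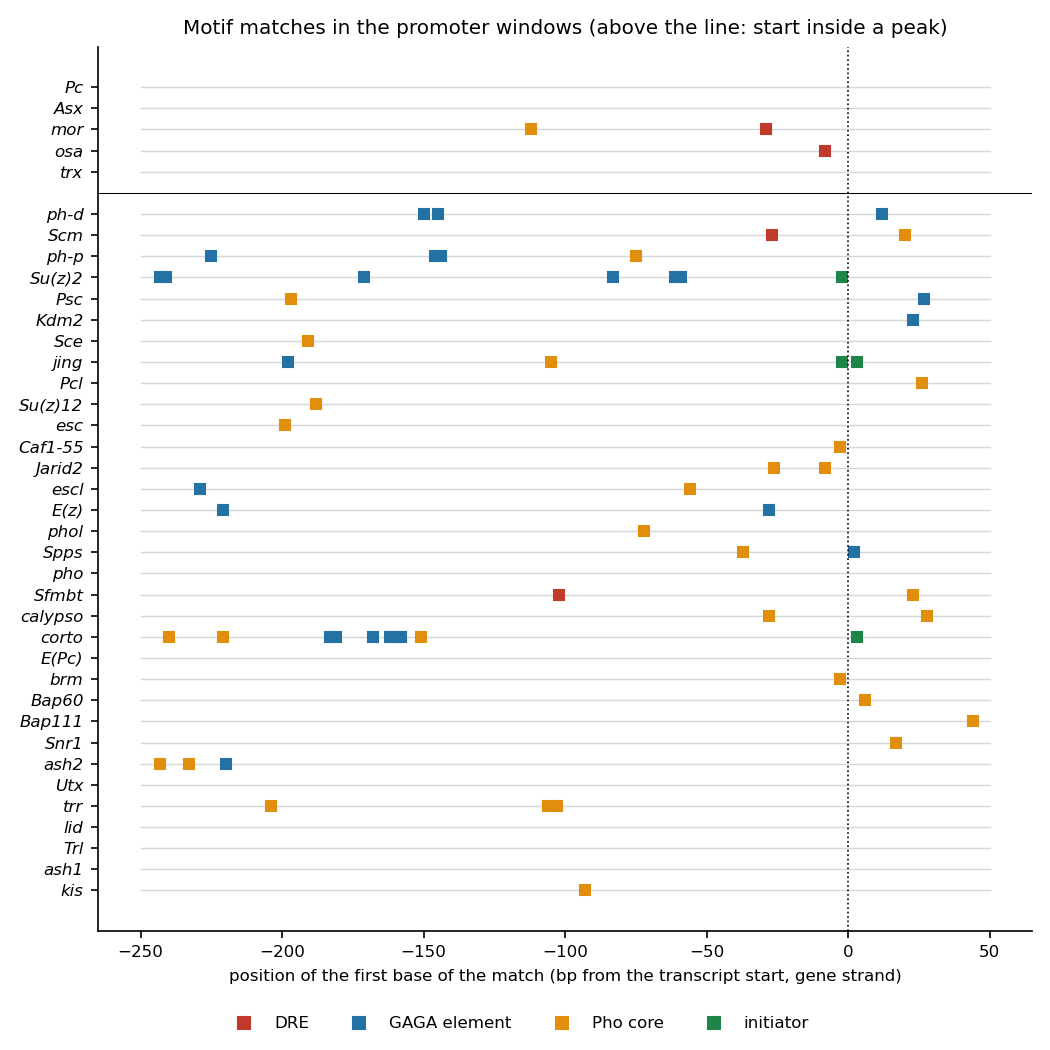
Positions of motif matches (x axis, bp from the transcript start on the gene's strand, first base of the match) in the promoter window of each member (y axis), with the 5 bound genes above the line. Red marks a DRE, blue a GAGA element, orange a Pho core and green an initiator. The bound genes hold 3 matches in all, those of mor and osa, while corto and Su(z)2 hold runs of GAGA elements.

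A further 55 genes of the same pathways, also listed by name with earlier results of these data known, were scored in the same way. Of these, 12 had a start inside a peak (21.8%, interval 12.9 to 34.4%, against 5.68% of protein-coding genes) and none had a peak in the body only. The comparison was not matched for length and not tested. The 12 genes ran from 1658 bp (l(3)73Ah) to 73058 bp (Nipped-A), and the background rose from 4.61% under 5 kb to 9.21% over 20 kb. The PRC1-associated genes among them were l(3)73Ah, a RING-finger gene related to Psc, and RYBP, which encodes a Sce-binding protein. Cg (combgap) encodes a DNA-binding protein of Polycomb response elements. Its peak also covered the start of mRpS16, so binding could not be assigned to cg alone. E(y)3 encodes a subunit of the PBAP form of the Brahma complex, which differs from the BAP form that contains Osa. Hcf is a COMPASS-associated gene and fs(1)h a bromodomain gene of the trithorax group, the latter with a peak shared with mys. E(bx) encodes the large subunit of the remodeller NURF, and Nipped-A and Ing3 belong to the Tip60 group. The last 3 were gpp, the H3K79 methyltransferase gene, Set2, an H3K36 methyltransferase gene whose peak also covered CG1998, and vtd, a cohesin subunit gene. The centres of all 12 peaks lay upstream of the start, by at most 148.0 bp, and their widths ran from 218 to 436 bp. Gpp alone among the 12 had a further peak in its body, so that 2 peaks overlapped it.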

How the data were processed

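Per the labels and the study's methods, the authors mapped quality-filtered reads to dm6 with Bowtie2 2.1.0, and MACS2 2.1.0 called peaks separately in the ChIP replicates, each compared with its input. Reproducible peaks were kept by the irreproducible discovery rate and overlapping ones fused with bedtools into the deposited list, so peaks were neither called on pooled reads nor kept per sample. The mock is not named in that step and was not used here. With default settings Bowtie2 places a read with several equal matches at just 1 of them, so a peak in repeated sequence may belong to another copy. The list holds a sequence name and 2 positions per peak, deposited without scores. The study lists the read numbers of the libraries, which were not used here, and no depth stands beside the peaks, so precision from depth is not given. No column was left unused.

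The 38 members and the 55 further genes were chosen with earlier results of these data known. Starts came from Ensembl release 115 (BDGP 6.54), without mobile elements, and sequence from the RefSeq copy of the same assembly. All 3363 peaks lay within its sequences. Genes were scored with Python 3.11.15, and Wilson intervals computed with statsmodels 0.14.6. No test was run. A 75 bp word was called unique when it occurs once on either strand of the genome. All bound and body-only members, the 5 nearest and 3 farthest unbound members, Asx, corto and the bound further genes were to be named. The other members were added after their values were seen. Scoring was tested on planted peaks. Alternatives were 3 distances to a start, the 5′-most start, a larger overlap, unique or wider peaks, the RefSeq annotation, another background and peaks off mobile elements.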

Additional observations from a re-analysis of the deposited data

How the results depend on the processing

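Pc, Asx, mor, osa and trx kept a start inside a peak under 4 of the 5 alternatives that could remove one, the 5′-most start, unique peaks alone, the RefSeq annotation and peaks off mobile elements. The 5′-most start could remove Asx alone, because Pc, mor, osa and trx have 1 annotated start each. All 5 peaks held unique words alone and overlapped no annotated mobile element. The settings for unique peaks and for peaks off mobile elements thus restate these properties of the peaks. A distance of up to 100, 500 or 1000 bp could only add members and added none. Of 42 values recomputed, 36 stayed within 1.5 times the reported one and none changed sign. Only the centre offset could change sign, because counts, shares and distances are never negative. The count of members with neither, 32 of 38, could not rise by 1.5 times. Part of this tally was therefore fixed in advance. With peaks of at least the median width of 365 bp alone, 1685 of 3363, 3 members (Asx, mor and osa) were bound at a start, with 1.95% of protein-coding genes, the median distance of a member to a peak was 110.0 kb and the median centre offset -148.0 bp. By construction this setting leaves out the narrow peaks, those of Pc and trx among them. The body peak of jing was lost, leaving 0 genes, both with unique peaks alone and with peaks off mobile elements, the latter chosen after the data were seen. The share of protein-coding genes ran from 1.95 to 7.9%. No paired analysis was possible because the list has no values per sample, and leaving out a replicate could not be run for the same reason. The list cannot show binding too weak or too variable to be reproducible, so a gene without a peak is one where none was listed.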
